A study of Homo sapiens with 12 samples.

Results

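Ribosome biogenesis and RNA polymerase I genes were followed in HepG2, a human hepatocellular carcinoma line often taken as a stand-in for human hepatocytes. A list of 43 genes was used, chosen by name: subunits and initiation factors of RNA polymerase I (Pol I), proteins of small nucleolar ribonucleoproteins (snoRNPs), and factors that cut, modify and fold ribosomal RNA (rRNA). Of these, 41 were measured among 18849 named genes; GNL3 and WDR43 were not analysed here. RNA came from 6 cultures in high glucose (25 mM) and 6 in low glucose, which is 2.7 mM in the sample labels and 0 mM in the methods. By the methods the cells had spent 16 h in 2.7 mM glucose before 8 h in these media, the line itself being kept in 25 mM glucose, so that no array stands for the start of the 8 h. The methods call the 6 samples of a group biological replicates; whether cultures shared a day is not given, and p-values measure the spread between these samples. Each RNA was hybridized to an Illumina HumanHT-12 BeadChip, where the brightness of a probe reports a transcript's level. All values are the deposited intensities, normalized across the arrays, and each gene was taken from its brightest probe. Log2 changes are high glucose minus low glucose from a limma fit over all 18849 genes, given as the change ± its standard error. A gene was said to have risen or fallen in high glucose when its Benjamini-Hochberg adjusted p over all genes was under 0.05.

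Cells make rRNA in the nucleolus. Pol I, guided to the rRNA gene promoter by the factor UBTF and the complex SL1, transcribes a long precursor, to which snoRNPs and large assemblies of processing factors attach while it is made. The precursor is cut and modified, and the small and large subunits then mature apart and leave for the cytoplasm, where the last steps take place. Much of a growing cell's energy goes into this pathway, which is known to respond to nutrients and to the transcription factor MYC. MYC and ChREBP, the glucose-responsive factor that the study is about, both recognize E-boxes, short sites such as CACGTG. The element that the paper describes for ChREBP is a pair of E-box-like sites at a set spacing.

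The promoters show where single CACGTG sites lie in these genes. RefSeq promoter sequences (GRCh38.p14, from 250 bases before to 50 bases after the annotated start) were matched for 36 of the 43 genes; POLR1E, NOLC1, NOP58, RRP12, BOP1, RRP1B and RRS1 were not matched. An E-box CACGTG, which reads the same on both strands, was found in 13 of the 36 (36.1%), where 10.8% of the 14873 array genes with a promoter and 8.77% of all 27305 genes with one held it. The windows of the 11 measured genes are printed on the strand of the gene, 5′ to 3′, with the E-box in capitals and its flanking bases in lower case, because they show the site and the bases around it in each gene.
PNO1: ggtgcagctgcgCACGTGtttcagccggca
RRP9: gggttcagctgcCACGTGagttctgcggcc
DDX21: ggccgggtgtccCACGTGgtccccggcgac
NOP10, distal: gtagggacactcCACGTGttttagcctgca
NOP10, proximal: gaaattgacgaaCACGTGacgcggtcgggc
FBL: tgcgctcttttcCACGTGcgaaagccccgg
NOP14: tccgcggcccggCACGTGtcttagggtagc
GAR1: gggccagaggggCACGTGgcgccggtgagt
BYSL: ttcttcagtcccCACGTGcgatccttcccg
NOP2: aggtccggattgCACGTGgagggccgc
UTP20: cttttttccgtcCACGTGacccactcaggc
PES1: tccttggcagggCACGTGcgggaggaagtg
The PNO1 window is chr2:68157885-68157914 (plus strand), that of RRP9 chr3:51941892-51941921 (minus strand) and that of DDX21 chr10:68956604-68956633 (plus strand). Counted from the annotated start as 0, the first base of the distal NOP10 site lay at -170, and the other E-boxes of these 11 genes began between -31 (DDX21) and 35 (NOP2). Of the 11 genes, 2 rose in high glucose (PNO1 and RRP9), 1 fell (DDX21) and 8 did not pass the test, where 30.0% of all 18849 genes changed (16.6% rose and 13.3% fell). Their log2 changes ran from -0.34 to 0.23 with a median of 0.07. The other 23 measured genes with a promoter held 6 that rose and 8 that fell, with changes from -0.98 to 0.50 and a median of -0.01; whether genes with and without the site differ was not tested. The genes at both ends of the whole list, TAF1D and NOP56, were among these 23. The letters CCGGAAG, searched on both strands as a core of sites for ETS factors, were in 15 of the 36 promoters (41.7%) and in 16.3% of those of array genes. TGATGNAA, searched on both strands for C/EBP-ATF sites, was in 0 of the 36 and in 3.76% of those of array genes. These matches describe letters in a window and say nothing of binding. The spaced pair of sites described for ChREBP was not searched for.

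**Figure D1:**
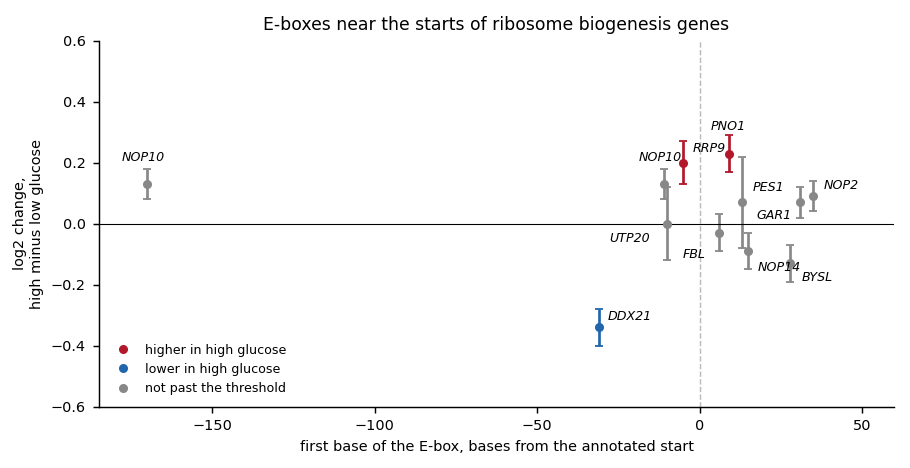
Log2 change in high against low glucose (y axis, with standard error) against the position of the E-box in bases from the annotated start (x axis) for the 11 measured genes that hold one; NOP10 appears at both of its sites. Most sites lie close to the start, and the genes scatter on both sides of a log2 change of 0, between -0.34 for DDX21 and 0.23 for PNO1.

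As a list the pathway moved in no common direction. In high glucose 9 of the 41 measured genes rose (22.0%, where 16.6% of all genes did), 11 fell (26.8%, where 13.3% of all genes did) and 21 did not pass the test. The share that changed either way was 48.8%, against 30.0% of all genes. These genes are bright, with a median intensity of 1651 where that of all genes was 146. In a separate fit of the genes over an intensity of 100 on at least 6 arrays, 22 of 40 list genes changed (55.0%). This was near the 49.4% of all genes in that fit. The median log2 change of the list was 0.004 and that of all genes 0.007. The median size of a log2 change was 0.14 in the list, 0.11 over all genes and 0.18 over the genes of that separate fit. Of the 41 genes, 3 fell by at least 1.5-fold (TAF1D, RIOK1 and NOB1), where 2.99% of all genes did. By the same measure 0 rose, where 2.72% of all genes did. The 6 arrays of one group lay wholly above the 6 of the other for 12 of the 41 list genes. Of these, 5 were higher and 7 lower in high glucose. Over all genes 18.5% were separated in this way, and the share among brighter genes was not counted. Of the 11 falls, 4 were in late small subunit maturation and 3 among Pol I initiation factors. Of the 9 rises, 3 were in large subunit assembly. Each role holds only a few genes, and its counts below are to be read beside the same shares of all genes. Whether the roles differ was not tested. All 7 genes of a short mitotic list, markers of dividing cells, rose in high glucose, with a median of 0.80 on the log2 scale. The list was chosen with earlier results of these data known, so this count is not a share of mitotic genes at large. The summed intensity of the 7 was 21945 to 24693 in high and 11174 to 12787 in low glucose. The part of cell division in these changes was not tested. In bulk RNA a shift in the share of cells in a given state and a shift in RNA per cell cannot be told apart.

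**Figure D2:**
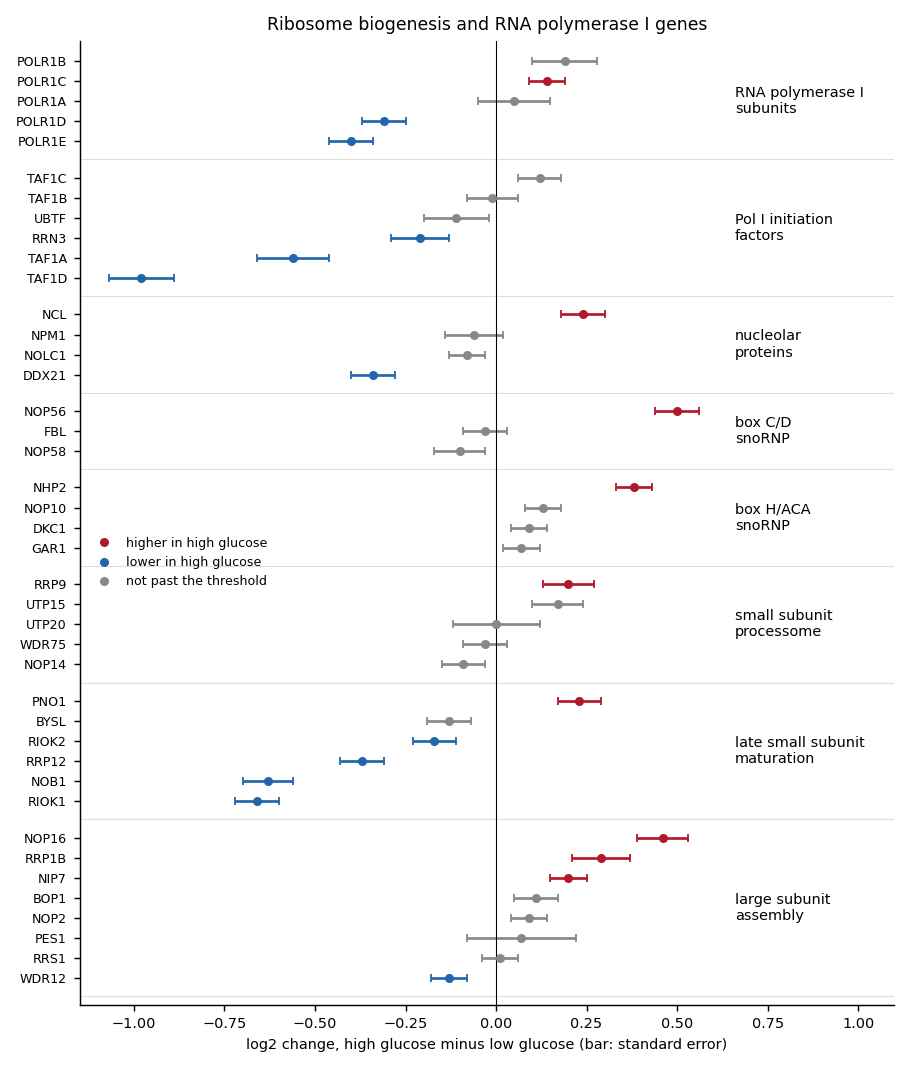
Log2 change, high glucose minus low glucose, of each of the 41 measured genes (points, with standard error bars), grouped by role and coloured by whether the gene rose, fell or did not pass the test. Changes run from -0.98 for TAF1D to 0.50 for NOP56, and most roles hold genes on both sides of 0.

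Among the initiation factors of Pol I, 3 of 6 fell and none rose, where 13.3% of all genes fell and 16.6% rose. TAF1D, one of the TBP-associated factors of SL1, the complex that recognizes the rRNA gene promoter, showed the largest change of the list. Its intensity was 222 to 274 (median 229) in high glucose and 383 to 552 (median 459) in low glucose. The groups were far apart, and the level in low glucose was 1.97-fold that in high glucose (log2 change -0.98 ± 0.09, adjusted p = 4.8e-10, limma). TAF1A, another SL1 factor, ranged from 186 to 253 (median 223) in high glucose and from 283 to 392 (median 311) in low glucose. Again no array of one group reached the other (log2 change -0.56 ± 0.10, adjusted p = 3.3e-05, limma). A second TAF1A probe fell as well, by 0.37 on the log2 scale, and the dimmest, with a mean of 75.1, gave 0.07 (adjusted p = 0.62 over all probes). The remaining SL1 factors of the list, which leaves out TBP, did not pass the test. TAF1B had means of 1322 ± 131 in high and 1330 ± 83.1 in low glucose (SD, n = 6 each). TAF1C had 981 ± 67.9 and 903 ± 65 in high and low glucose (SD, n = 6 each). Their log2 changes were -0.01 ± 0.07 (adjusted p = 0.93, limma) and 0.12 ± 0.06 (adjusted p = 0.18, limma). The introns of TAF1D also carry snoRNAs, as do those of NOP56 and NCL. Of these host genes, named here because they changed, TAF1D fell while NOP56 and NCL rose. The NCL rise did not pass with the mean of its probes (adjusted p = 0.21, limma). Host genes that did not pass the test are left out of this comparison.

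RRN3, which recruits Pol I to SL1, was at 375 to 460 (median 413) in high glucose and 403 to 562 (median 483) in low glucose. The groups overlapped and the fall was small (log2 change -0.21 ± 0.08, adjusted p = 0.044, limma). It was lost, with adjusted p between 0.055 and 0.12, when any array was left out other than high glucose replicate 1 or low glucose replicate 4. UBTF, which opens the rRNA genes for Pol I, did not pass the test at its brightest probe (log2 change -0.11 ± 0.09, adjusted p = 0.42, limma). Of its 3 dimmer probes, 1 rose by 0.22 (adjusted p = 0.045 over all probes) at a mean intensity of 133.

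Among the 5 core subunits of Pol I on the list, 2 fell, 1 rose and 2 did not pass the test. POLR1E, a subunit that Pol I does not share with RNA polymerase III, ranged from 1308 to 1561 (median 1408) in high glucose and from 1681 to 2096 (median 1894) in low glucose. Every high-glucose array was below every low-glucose array (log2 change -0.40 ± 0.06, adjusted p = 9.1e-06, limma). Its dimmer probe gave -0.18 (adjusted p = 0.071 over all probes). POLR1D and POLR1C, which form a pair of small subunits in both Pol I and RNA polymerase III, changed in opposite directions. POLR1D, the brightest gene of the list, was at 14960 to 17673 (median 15343) in high glucose and 18254 to 22253 (median 19044) in low glucose (log2 change -0.31 ± 0.06, adjusted p = 1.3e-04, limma). The groups did not overlap, and its dimmer probe fell by 0.45. POLR1C was at 3038 to 3515 (median 3224) in high glucose and 2754 to 3055 (median 2977) in low glucose. This rise was slight, and the groups overlapped (log2 change 0.14 ± 0.05, adjusted p = 0.041, limma), and its adjusted p was 0.051 to 0.12 when high glucose replicate 1, 4 or 5 or low glucose replicate 1, 3 or 4 was left out. Over all probes the brightest POLR1C probe had adjusted p = 0.086 (limma). The dimmer POLR1C probe rose by 0.20 (adjusted p = 0.028 over all probes, limma), and the mean of both by 0.17 (adjusted p = 0.011, limma). The catalytic subunits, POLR1A at 165 ± 12.8 against 161 ± 24.2 and POLR1B at 210 ± 17 against 186 ± 21.6 (high against low glucose, SD, n = 6 each), did not pass the test (adjusted p = 0.79 and 0.14, limma). Both are dim on these arrays, where the lowest intensity is 47.2 and the median 90.8.

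The largest rise of the list was in a snoRNP protein. NOP56, a scaffold of the box C/D snoRNPs that guide methylation of rRNA, ranged from 9137 to 10965 (median 10435) in high glucose and from 6529 to 7925 (median 7275) in low glucose. All high-glucose arrays were above all low-glucose arrays (log2 change 0.50 ± 0.06, adjusted p = 3.5e-08, limma), and its other probes rose too, by 0.38 and 0.31. Its partners in the same particle did not pass the test: fibrillarin (FBL), the methyltransferase, had means of 10118 ± 759 in high and 10364 ± 961 in low glucose (SD, n = 6 each), and NOP58, the paralogous scaffold, had 1602 ± 219 and 1701 ± 94.3 in high and low glucose (SD, n = 6 each). Their log2 changes were -0.03 ± 0.06 for FBL and -0.10 ± 0.07 for NOP58 (adjusted p = 0.76 and 0.39, limma). Among the 4 proteins of the box H/ACA snoRNPs, which convert uridine to pseudouridine, NHP2 rose. It was at 2364 to 2606 (median 2402) in high glucose and 1789 to 1990 (median 1871) in low glucose, with no overlap (log2 change 0.38 ± 0.05, adjusted p = 1.2e-06, limma). Both of its probes rose. The pseudouridine synthase dyskerin (DKC1) and the small proteins GAR1 and NOP10 had positive but smaller changes of 0.09, 0.07 and 0.13 with adjusted p = 0.24, 0.37 and 0.053 (limma). NOP10 would have passed, with adjusted p from 0.021 to 0.048, without high glucose replicate 2 or 4 or low glucose replicate 5. It also passed with all arrays kept under some of the processing choices described below (adjusted p = 0.034 to 0.049, limma).

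**Figure D3:**
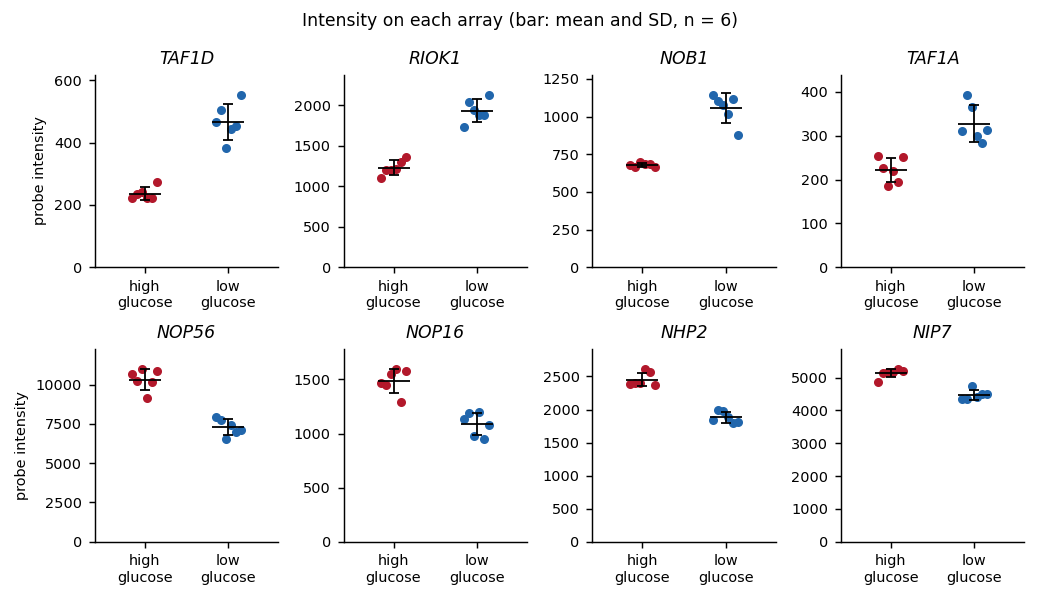
Probe intensity (y axis, linear from 0) on each of the 6 high-glucose and 6 low-glucose arrays for 8 genes, with the mean and SD as black bars. TAF1D, RIOK1, NOB1 and TAF1A were lower in high glucose and NOP56, NOP16, NHP2 and NIP7 higher, in each case without overlap of the groups.

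Nucleolar proteins with broader roles also split. Nucleolin (NCL), an abundant RNA-binding protein of the nucleolus, was at 10470 to 12428 (median 11714) in high glucose and 9137 to 11171 (median 9608) in low glucose. It rose with some overlap of the groups (log2 change 0.24 ± 0.06, adjusted p = 0.0013, limma), but its dimmer probe gave 0.07 ± 0.14, and the mean of the probes 0.15 with adjusted p = 0.21. DDX21, an RNA helicase that couples Pol I transcription to processing, was at 6020 to 7053 (median 6362) in high glucose and 6895 to 9331 (median 8157) in low glucose. It fell, with a slight overlap (log2 change -0.34 ± 0.06, adjusted p = 9.0e-05, limma). NOLC1, a chaperone of snoRNPs, was at 2323 ± 143 in high and 2459 ± 122 in low glucose (SD, n = 6 each) and did not pass the test (adjusted p = 0.30, limma). NPM1, nucleophosmin, is an abundant nucleolar protein, but its named probe stood at 84.9 ± 5.41 in high and 89 ± 9.51 in low glucose (SD, n = 6 each), below the median of 90.8, and did not pass the test (adjusted p = 0.62, limma). Whether this probe reads its main transcript was not tested.

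Of 5 measured proteins of the small subunit processome, the assembly that forms on the new precursor, 1 rose and none fell. RRP9, a protein of the U3 snoRNP, was at 418 to 539 (median 477) in high glucose and 377 to 434 (median 420) in low glucose. The groups overlapped (log2 change 0.20 ± 0.07, adjusted p = 0.043, limma), and the call was lost, at adjusted p between 0.053 and 0.13, when any array was left out other than high glucose replicates 3 and 4 and low glucose replicate 5. UTP15 (log2 change 0.17 ± 0.07, adjusted p = 0.058), UTP20 (0.00 ± 0.12, adjusted p = 0.99), WDR75 (-0.03 ± 0.06, adjusted p = 0.75) and NOP14 (-0.09 ± 0.06, adjusted p = 0.34) did not pass limma's test. UTP15 would have, with adjusted p of 0.021 and 0.039, without high glucose replicate 3 or low glucose replicate 6. With all arrays kept, UTP15 also passed in the fit of probe means and in that of genes over 100 (adjusted p = 0.033 and 0.040, limma). UTP20 was dim, at 152 ± 28.9 in high and 150 ± 21.9 in low glucose (SD, n = 6 each), and a still dimmer probe of it fell by 0.26 (adjusted p = 0.036 over all probes).

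Late small subunit maturation held 4 falls and 1 rise among 6 genes. Over all genes 13.3% fell and 16.6% rose, and 49.4% changed in the separate fit of genes over an intensity of 100. RIOK1, an atypical kinase of the cytoplasmic steps, was at 1098 to 1359 (median 1205) in high glucose and 1729 to 2121 (median 1913) in low glucose. The groups lay well apart, the low-glucose level being 1.58-fold the high-glucose level (log2 change -0.66 ± 0.06, adjusted p = 1.5e-09, limma). A second RIOK1 probe fell by 0.28, and the dimmest, with a mean of 69.4, gave -0.01. NOB1, the endonuclease that makes the final cut at the end of the small-subunit rRNA, was at 663 to 697 (median 680) in high glucose and 878 to 1142 (median 1091) in low glucose. The high-glucose arrays lay close together, and none came near the low-glucose arrays (log2 change -0.63 ± 0.07, adjusted p = 7.7e-09, limma). PNO1, which binds NOB1 and holds the cleavage site until that cut, went the other way, at 2017 to 2312 (median 2137) in high glucose and 1648 to 1962 (median 1865) in low glucose (log2 change 0.23 ± 0.06, adjusted p = 0.0018, limma). RRP12, which in yeast takes part in export of the pre-ribosomes, was at 1098 to 1330 (median 1210) in high glucose and 1409 to 1725 (median 1599) in low glucose, again with no overlap (log2 change -0.37 ± 0.06, adjusted p = 1.8e-05, limma). RIOK2, the kinase related to RIOK1, was at 1592 to 1711 (median 1662) in high glucose and 1706 to 2015 (median 1891) in low glucose. Its fall was small, with the ranges just overlapping (log2 change -0.17 ± 0.06, adjusted p = 0.019, limma) and reached an adjusted p of 0.052 without low glucose replicate 6. BYSL (bystin), a factor of small subunit precursors, had a log2 change of -0.13 ± 0.06 (adjusted p = 0.093, limma), which was -0.16 with adjusted p = 0.038 without high glucose replicate 6.

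In large subunit assembly 3 of 8 genes rose and 1 fell. NOP16, which in yeast belongs to early large-subunit particles, was at 1296 to 1592 (median 1510) in high glucose and 950 to 1200 (median 1103) in low glucose. The groups did not overlap (log2 change 0.46 ± 0.07, adjusted p = 3.8e-06, limma). RRP1B, a nucleolar protein, was at 460 to 572 (median 483) in high glucose and 343 to 503 (median 405) in low glucose, with overlap (log2 change 0.29 ± 0.08, adjusted p = 0.0065, limma). NIP7, which is needed for correct processing of the precursor, was at 4881 to 5250 (median 5167) in high glucose and 4356 to 4751 (median 4449) in low glucose. The groups did not overlap, although the change was small (log2 change 0.20 ± 0.05, adjusted p = 0.0014, limma). PES1, BOP1 and WDR12 form 1 complex, PeBoW, which large subunit maturation depends on. WDR12 fell slightly, at 5385 ± 138 in high and 5881 ± 174 in low glucose (SD, n = 6 each; log2 change -0.13 ± 0.05, adjusted p = 0.040, limma). Its second probe gave -0.01, and the call was lost, at adjusted p of 0.055 to 0.079, when any array was left out other than high glucose replicate 2 and low glucose replicates 2 and 5. BOP1 had a log2 change of 0.11 ± 0.06 (adjusted p = 0.16, limma) and PES1, the most variable gene of the list with 471 ± 67.1 in high and 468 ± 140 in low glucose (SD, n = 6 each), one of 0.07 ± 0.15 (adjusted p = 0.81, limma). The rRNA methyltransferase NOP2 (0.09 ± 0.05, adjusted p = 0.23) and RRS1, which in yeast helps to place the small rRNA of the large subunit (0.01 ± 0.05, adjusted p = 0.91), did not pass limma's test either, although the middle of the 3 NOP2 probes by brightness rose by 0.33 (adjusted p = 0.025 over all probes).

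No list gene had probes that passed the test in opposite directions, among the 16 genes with several probes. Spread within groups had a median SD of 0.103 on the log2 scale, from 0.040 for WDR12 to 0.394 for PES1. Over all genes the median SD was 0.127, but these are dimmer, with a median intensity of 146 where the list had 1651. The spread of brighter genes alone was not computed.

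Other genes of the pathway, listed by their known roles, also changed in both directions. Of 7 further Pol I subunits, some shared with the other RNA polymerases, 3 rose (POLR2L by 0.82, POLR1G by 0.38 and POLR2F by 0.35 on the log2 scale) and 1 fell (POLR1H, -0.48). Of 19 genes of RNA polymerase III and its factors, which make the smallest rRNA and tRNAs, 6 rose, led by POLR3K (0.91), POLR3G (0.39) and CRCP (0.38), and 4 fell, led by POLR3C (-0.71), POLR3D (-0.46) and GTF3C3 (-0.39). Further proteins of the small subunit processome numbered 42, of which 6 rose, with IMP3 (0.53) ahead, and 8 fell, with RCL1 (-0.83) ahead. Of 41 further large subunit factors, 6 rose, among them DDX51 (0.56) and GRWD1 (0.44), and 17 fell, among them the export adaptor NMD3 (-0.64), RPF2 (-0.44) and GNL2 (-0.40), with a median of -0.12. Exosome genes, which trim rRNA ends, rose in 6 of 13 cases (EXOSC4 by 0.64) and fell in 2 (EXOSC1, -0.40). Protein genes of RNase MRP and RNase P rose in 6 of 11 cases (POP5 by 0.65, POP4 by 0.41) and fell in 2 (RPP40, -0.52), with a median of 0.24. Of 9 snoRNP assembly factors, 3 rose (SHQ1 by 0.44, RUVBL1 by 0.41) and 3 fell (ZNHIT6, -0.46). In these lists without the RNA polymerase III genes, 63 of 123 genes changed (30 rose, 33 fell), a share of 51.2% where 30.0% of all genes changed and 49.4% of genes over an intensity of 100 on at least 6 arrays did. Only 6 of the 123 averaged below 100. The 49.4% came from a separate fit of the genes over that intensity, in which the 123 were not counted. That fit sets only a floor on brightness, so these shares are not strictly alike.

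**Figure D4:**
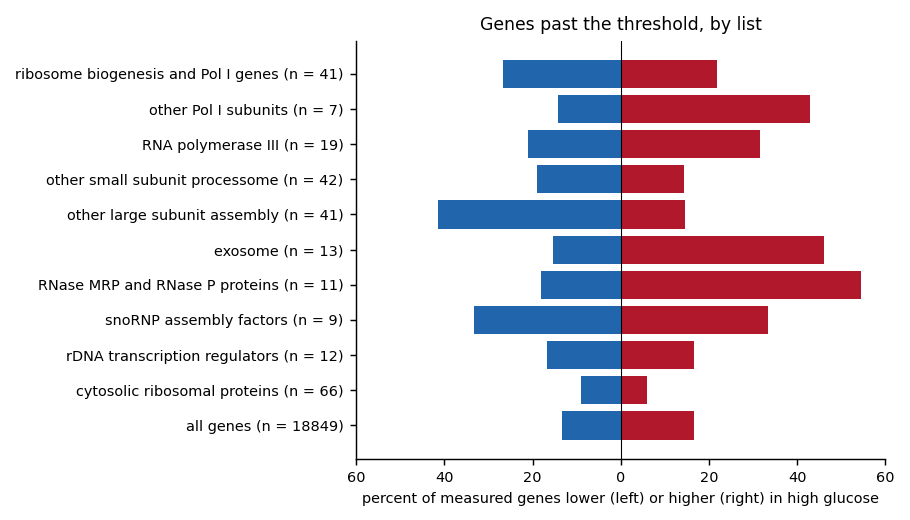
Percent of the measured genes of each list that were lower (left of 0) or higher (right of 0) in high glucose (limma, adjusted p below 0.05), with the number measured in brackets. The ribosome biogenesis and Pol I genes (26.8% lower, 22.0% higher) and each related list held genes of both directions; 4 of 66 ribosomal protein genes were higher and 6 lower.

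Ribosomal protein genes and regulators of rRNA genes were counted against the same share of all genes, of which 16.6% rose and 13.3% fell. In the separate fit of genes over an intensity of 100 on at least 6 arrays, 49.4% changed, but these lists were not counted there. Ribosomal protein genes are bright, with means up to 29158 and only 1 below 100. Why few of them passed the test was not tested. Of 66 cytosolic ribosomal protein genes 4 rose, with RPS26 (0.55), RPL29 (0.51) and RPL34 (0.20) ahead, 6 fell, with RPL13A (-0.68), RPL28 (-0.63) and RPL22 (-0.52) ahead, and 56 did not pass the test. Ribosomal protein genes have many processed pseudogenes, and probes that these share leave single values uncertain. Among 12 regulators of rRNA gene transcription, 2 rose and 2 fell. MYC, which is known to promote transcription of Pol I and of many genes of this pathway, had an intensity of 6219 ± 193 in high and 10184 ± 573 in low glucose (SD, n = 6 each; log2 change -0.71 ± 0.05, adjusted p = 4.7e-12, limma), and its partner MAX fell by 0.40. CAVIN1, a factor for release of Pol I transcripts that also builds caveolae, rose by 0.41 and the terminator-binding factor TTF1 by 0.19.

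The labelled cell line was checked by marker genes. The 9 measured hepatocyte genes, such as ALB and TTR, had mean intensities from 2682 to 27903. Means under 100 were seen for 4 of 5 fibroblast genes and 4 of 6 leukocyte and endothelial genes, where 37.6% of all genes were that dim. The others were PDGFRB (505 in high and 745 in low glucose), CD14 (472 in high and 294 in low) and PECAM1 (208 in high and 209 in low). Pairs of arrays correlated at r = 0.994 to 0.997 over genes within a group and at 0.985 to 0.988 across the groups.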

How the data were processed

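Total RNA of 12 HepG2 cultures was hybridized to Illumina HumanHT-12 BeadChips. The deposited intensity values are linear. Per the methods the authors normalized with limma; the sorted values of any pair of arrays differ by at most 0.825, as after quantile normalization. GenomeStudio 2010.1 is listed by the submitters. No source used here says whether background was subtracted. A table of unnormalized signals has 24 per-sample columns matching no label and was not used. Platform annotation, brought up to date by gene ID or accession, gave 28098 probes 1 symbol, 13 several and 20692 none; a gene's probe with the highest mean was taken. The main model was limma's lmFit and eBayes (trend, no block; limma 3.58.1, R 4.3.3) on log2 intensities of 18849 genes, Benjamini-Hochberg adjusted; single probes were fitted likewise. The number of arrays limits precision. Scripts were tested on simulated data. Alternatives: adding 16 before log2; averaging the probes of each gene; keeping genes over 100 on at least 6 arrays; normexp (offset 16); median centring; array weights; a regularized test after Cyber-T, named in the methods (101-gene window, prior weight 10); replicate number as block; adjusted p under 0.01; a fold of at least 1.5; leaving out each array. Members, lists and tests were chosen with earlier results of these data known. Values by array are given for up to 10 rises and 10 falls with the largest changes among genes past the threshold, and up to 3 genes each way are named from other lists. Plots used matplotlib 3.10.9 (Python 3.11.15).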

Additional observations from a re-analysis of the deposited data

Results flagged for a closer look

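Within the 6 arrays of a group, 5 of 82 gene and group combinations held an array set far apart from the rest on the log2 scale, where chance gives about 1 in 20. NPM1 was at 95.7 on high glucose replicate 4, where the next array was at 84.4. RRP9 was at 377 on low glucose replicate 4, below the next at 413. BOP1 was at 6106 on low glucose replicate 3, below the next at 7286. NIP7 was at 4881 on high glucose replicate 1, where the next was at 5156, and at 4751 on low glucose replicate 3, where the next was at 4491; both of these lie toward the other group, and the groups still did not overlap.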

How the results depend on the processing

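Of the 20 genes that changed, 14 kept their direction and call in all 20 alternatives other than the stricter thresholds, and 6 lost the call in at least 1: POLR1C, RRN3, RRP9, WDR12, NCL and RIOK2. Of the genes that did not pass, 4 passed in at least 1 alternative: NOP10, UTP15, BYSL and NOP2. With all arrays kept, NOP10 passed with probe means, the intensity filter, normexp and array weights (adjusted p = 0.034 to 0.049, limma). UTP15 passed with probe means and the intensity filter (adjusted p = 0.033 and 0.040, limma), and NOP2 with probe means (adjusted p = 0.043, limma). BYSL passed only without high glucose replicate 6. The Cyber-T style test called 7 rises and 9 falls, without POLR1C, RRN3, RRP9 and WDR12. With a fold of at least 1.5 required, 0 rises and 3 falls were left in the list and 1075 genes overall. Leaving out 1 array at a time gave 7 to 10 rises, 8 to 10 falls, a median log2 change of the list from -0.029 to 0.022, and 5342 to 5563 changed genes overall. Some genes that did not pass the test turned sign and still did not pass: with the mean of a gene's probes UBTF was at 0.015, TAF1B at 0.004 and UTP20 at -0.113, and with normexp UTP20 was at -0.002. Without single arrays UTP20 ranged from -0.058 to 0.098, TAF1B from -0.059 to 0.027, FBL from -0.057 to 0.015, RRS1 from -0.015 to 0.033 and PES1 from -0.125 to 0.166. With the replicate number as a block, 8 list genes rose and 10 fell, POLR1C (adjusted p = 0.054, limma) and WDR12 (adjusted p = 0.070, limma) being lost. Over all genes, same-numbered arrays did not deviate together from their group means (correlations from -0.0541 to 0.0203). This shows no common shift of such arrays, but cannot say whether same-numbered cultures were handled together. Dim probes limit UTP20, POLR1A, POLR1B and NPM1, whose mean intensities were under 200.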
